A study of Mus musculus with 27 samples.

Results

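Heat shock genes of the cytosol and nucleus were followed in mouse liver through a reproductive cycle. The 10 genes were taken from a fixed list: Hspa1a and Hspa1b (inducible HSP70), Hspa8 (constitutive HSP70), Hsp90aa1 and Hsp90ab1 (HSP90), Hsph1 (HSP110), Dnajb1 and Dnaja1 (HSP40), Bag3, and Hspb1 (HSP27). They were 10 of the 51826 gene identifiers in the expression tables. Hspa1a and Hspa1b share most of their sequence and therefore their reads, so their counts were summed and the list became 9 entries. All 9 passed the filter on low counts and were tested together with the other genes of a table of 16427.

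RNA came from whole livers of wild-type BALB/c mice, frozen and powdered before extraction, and sequenced as 27 libraries. Nulliparous mice (NUL, 4 libraries) had never been pregnant. Lactating mice (LAC, 3) were taken on lactation day 10. In the involution groups the pups had been removed, after 10 to 14 days of lactation, and livers were taken 2 days (ID2, 3), 4 days (ID4, 4), 6 days (ID6, 6) or 8 days (ID8, 3) later. Regressed mice (REG, 4) were taken 4 weeks after weaning. The mice were mated at 10 to 12 weeks of age, litters were evened out in size and ages were matched across groups. The labels name no transgene and no agent in any group, and all groups share the strain. The labels give each library a stage and a number, so libraries are named below as, for example, LAC_213. They do not state that each number is a separate mouse, so p-values measure the spread between these libraries.

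Cytosolic chaperones bind unfolded or partly folded proteins and release them for folding. HSP70 proteins work in cycles of ATP hydrolysis, in which HSP40 proteins deliver the client and HSP110 and BAG proteins release ADP. HSP90 takes over clients such as kinases and steroid hormone receptors for their last folding steps, and HSP27 holds unfolded proteins without using ATP. Transcription of the inducible genes is driven by heat shock factor 1 (HSF1), which is held inactive by chaperones, forms trimers when unfolded protein accumulates, and binds repeats of the short unit nGAAn, the heat shock element. In liver, which secretes much of the protein of plasma, inducible HSP70 is known to respond to heat and oxidants.

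The promoter sequences show how close the 2 HSP70 genes are and where the letters of a heat shock element lie. RefSeq promoter windows (build GRCm38.p6, 250 bases before to 50 after a transcription start) were found for 7 of the 10 genes, and Hspa8, Hsp90aa1 and Hsp90ab1 had no entry. The 250 bases before the start of Hspa1b, on the minus strand at chr17:34959239-34959488, are printed 5′ to 3′ with a pair of inward-facing units in capitals:
Hspa1b: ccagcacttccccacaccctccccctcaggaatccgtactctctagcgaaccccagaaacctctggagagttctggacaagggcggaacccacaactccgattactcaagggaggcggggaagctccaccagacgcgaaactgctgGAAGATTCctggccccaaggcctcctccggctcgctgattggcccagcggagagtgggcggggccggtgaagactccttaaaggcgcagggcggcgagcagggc
The window of Hspa1a lies at chr17:34972157-34972406, also on the minus strand. Over 300 bases the 2 windows were identical at 296. Counting from 1 at the first base of the window, with the Hspa1a base first, the 3 differences before the start are C44T, T47C and T249G, and the capitals, which begin 104 bases before the start, are the same in both.

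Letters searched were TTCNNGAA and GAANNTTC, each of which reads the same on both strands, and a longer form of 3 units, in which either is extended by a further unit in the opposite direction, so that it overlaps the short forms. The short forms were found in the windows of 6 of the 7 genes, against 17.0% of the 27025 genes in the RefSeq table. A long form was found in 1 of the 7, Hsph1, where in the first of 2 windows it begins 36 bases after the start, against 0.662% of all genes. The 30-base stretches around the matches before a start, with the match in capitals, are these:
Dnaja1: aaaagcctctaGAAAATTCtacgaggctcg
Hspb1 (first match): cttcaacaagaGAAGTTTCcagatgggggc
Hspb1 (second match): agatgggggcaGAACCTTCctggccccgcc
Hsph1: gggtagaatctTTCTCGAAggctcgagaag
The capitals begin, relative to the start, at base -124 in Dnaja1, at -117 and -97 in Hspb1 and, in that window, at -33 in Hsph1. The match in Bag3 begins 42 bases after the start, and neither window of Dnajb1 held these letters. A match describes the sequence and does not show binding.

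Libraries held between 41120650 and 75664540 counts, and the 9 entries between 119 (the lowest count of Hspb1) and 94671 (the highest of Hspa8). Library numbers fell into 2 ranges that the labels do not explain: 7 libraries were numbered under 200, namely all 3 of ID8, 2 of 3 of ID2 and 2 of 4 of ID4. All 6 hepatocyte markers, among them Alb and Apoa1, were found and none was at 0 in all libraries, with a summed level of 88828 to 227165 CPM, the count scaled to a common library size. ID2_31 stood apart with a summed level of 1289 CPM over 8 exocrine pancreas genes, against 6.13 to 10.3 in the other ID2 libraries, and ID4_15 had 91.8. Of the 10 marker sums, 6 differed without overlap between LAC and ID2. The hepatocyte sum was 183031 to 227165 CPM in LAC and 138656 to 150205 in ID2, the sinusoidal endothelium sum 202 to 231 and 276 to 293, and the stellate cell sum 275 to 291 and 320 to 355. The shifts were relatively wider in 3 low sums, bile duct (21.4 to 27.9 CPM in LAC and 29.8 to 40.6 in ID2), smooth muscle (4.11 to 10 and 14.2 to 21.8) and adipocyte (0.762 to 1.31 and 2.02 to 6.52). Other stages differed from LAC without overlap as well. The erythroid sum was 767.6 to 1015.6 CPM in LAC, 334.7 to 711.7 in NUL, 53.1 to 264.4 in ID6 and 19.9 to 35.0 in ID8. The macrophage sum was 186.4 to 254.3 in LAC, 263.7 to 340.4 in NUL, 348.4 to 520.5 in ID6 and 314.8 to 378.4 in ID8. In NUL the hepatocyte sum was 95162 to 121715 and the stellate cell sum 350 to 434. The part of these shifts in the differences described below was not tested. In bulk tissue, fewer cells of a type and less RNA per cell cannot be told apart.

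By stage mean, most heat shock genes were highest in lactation and all were lowest 2 days after weaning. No entry was called between LAC and NUL, ID4 or REG, as given below. The share of all genes with the same extremes was not counted. For Hspa8 the place of LAC depended on the unit, since its mean TPM was 857.2 in REG and 856.3 in LAC. By mean CPM, 8 of the 9 entries had their highest stage in LAC, the exception being Hspb1, whose NUL mean was highest and rested on NUL_221, and all 9 had their lowest stage in ID2. The range differed widely between members. Between the highest and the lowest stage mean, the summed Hspa1a and Hspa1b level spanned 13-fold, Hsp90aa1 3.12-fold, Hsph1 2.95-fold, Hspb1 2.80-fold and Bag3 2.6-fold, whereas Dnajb1, Dnaja1, Hsp90ab1 and Hspa8 spanned 2.00-fold, 1.84-fold, 1.58-fold and 1.55-fold. Per transcript length, in TPM, the length-scaled unit of the deposited tables, the order of mean level over the 27 libraries was Hspa8 (741), Hsp90ab1 (451), Dnaja1 (223), Hsp90aa1 (162.5), Hsph1 (45.3), the Hspa1 sum (35.7), Dnajb1 (17.0), Bag3 (16.7) and Hspb1 (9.73). Of these, the 3 with the highest level were also the 3 with the narrowest range between stages.

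**Figure D1:**
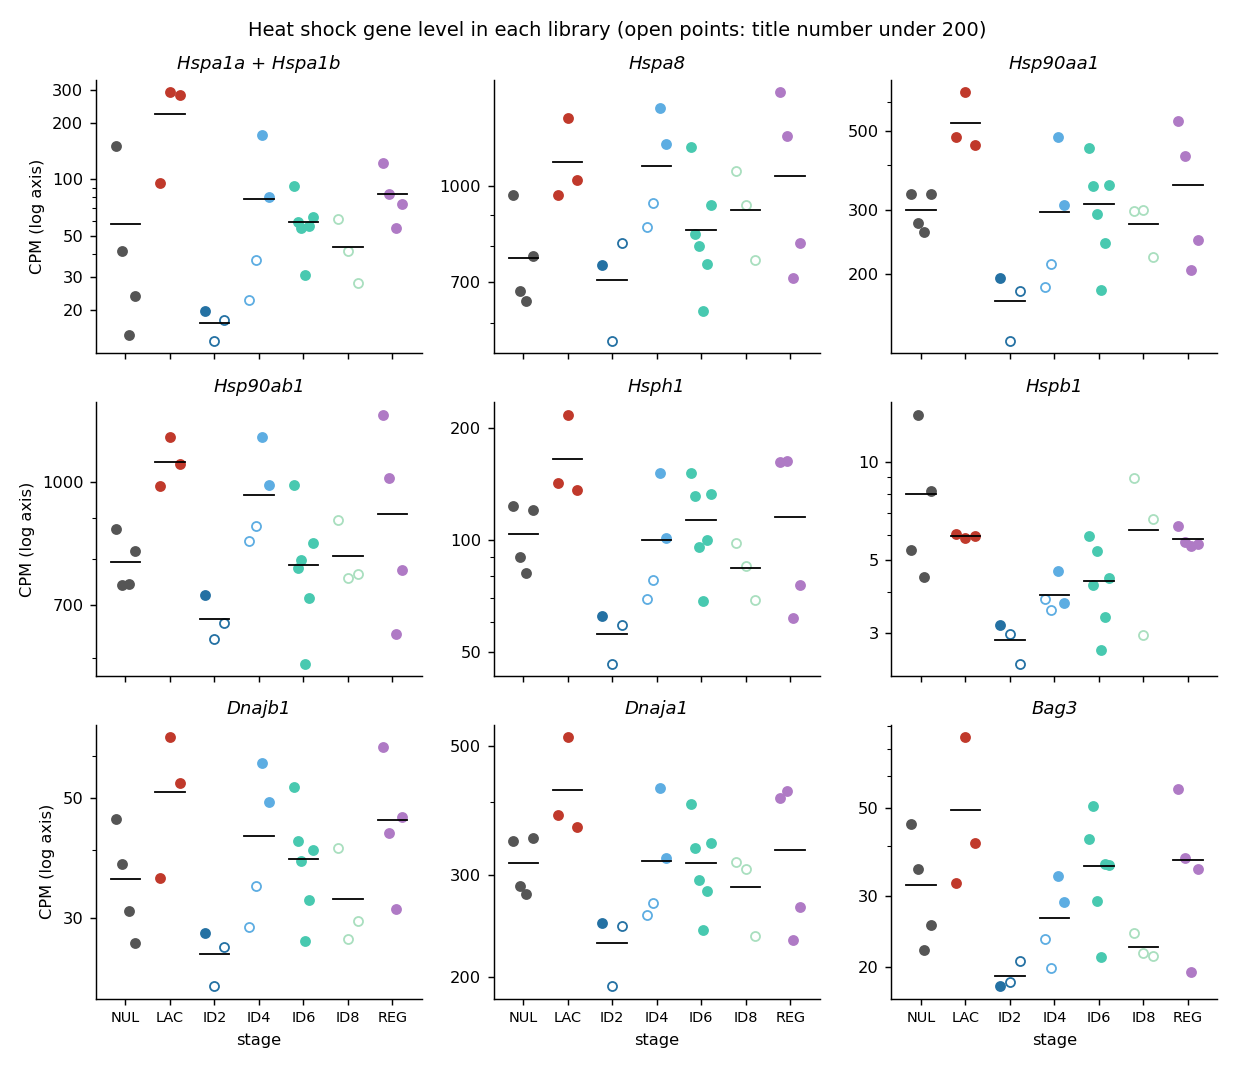
Level of each heat shock entry in CPM (vertical, log axis) in every library, by stage (horizontal), with the stage mean as a bar and open points for libraries numbered under 200. Every ID2 point lies below every LAC point in all 9 panels, and the Hspa1a + Hspa1b panel spans 13.7 to 292.

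Differences among the 7 stages were first tested jointly. Adjusted p-values throughout are from edgeR's quasi-likelihood test with Benjamini-Hochberg adjustment over all 16427 genes, and a gene is called where this value is under 0.05. Unless another fit is named beside it, a share of all genes is for edgeR at that threshold in the fit of all 27 libraries. Such a share is no background for counts of unadjusted p-values, of DESeq2 calls or of calls in other fits. Jointly, 5 of 9 entries were called, against 27% of all genes tested. They were Hspb1 (adjusted p = 0.0159), the Hspa1 sum (0.0174), Hsp90ab1 (0.0355), Hsp90aa1 (0.0462) and Bag3 (0.0479). Hsph1 (0.0559), Dnaja1 (0.0896), Dnajb1 (0.110) and Hspa8 (0.128) were not called. The count was 1 without LAC_213 and 1 without LAC_240, and 2 with the number range as a covariate. The 27% does not apply to these fits, whose own shares of all genes are not given.

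Inducible HSP70 had the widest swings. Hspa1a (chr17:34969190-34972156) and Hspa1b (chr17:34956436-34959238, both GRCm38, minus strand) lie side by side in the major histocompatibility region, and Hspa1b took 88.6% to 97.2% of their summed counts, as apportioned by the authors' software. Their sum was 95.6, 292 and 281 CPM in the 3 LAC libraries and 19.8, 13.7 and 17.8 in the 3 ID2 libraries. It was 150.5, 41.3, 14.8 and 23.8 in NUL, 22.6, 37.0, 173 and 80.6 in ID4, 61.5, 41.2 and 27.9 in ID8, and 122, 83.0, 54.8 and 74.0 in REG, with a low of 30.8, a median of 57.8 and a high of 92.3 in ID6. The LAC and ID2 libraries did not overlap, while NUL_220 stood inside the LAC range and far above the 3 other NUL libraries.

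The Hspa1 sum was 13-fold lower in ID2 than in LAC (log2 fold change -3.70, SE 0.80, adjusted p = 0.00402). It was also lower in ID6 than in LAC (-1.91, SE 0.60, adjusted p = 0.0323) and in ID8 than in LAC (-2.36, SE 0.76, adjusted p = 0.0445), calls made in only 2 of 9 and 1 of 6 fits without 1 library. All ID8 libraries were numbered under 200 and all LAC libraries 200 and over, and with the number range as a covariate the ID8 value was -0.90 (SE 0.96, adjusted p = 0.662) and not called. Between LAC and NUL the log2 fold change was 1.95 (SE 0.67), with an adjusted p of 0.0690, and it was not called. Without NUL_220 that value was 3.06 and the call was made. Ordered by mean, the stages ran LAC (223 ± 110 CPM, SD, n = 3), REG (83.5 ± 28.3, n = 4), ID4 (78.4 ± 67.9, n = 4), ID6 (59.3 ± 19.7, n = 6), NUL (57.6 ± 62.9, n = 4), ID8 (43.5 ± 16.9, n = 3) and ID2 (17.1 ± 3.13, n = 3). The neighbours from REG to ID8 lay within the spread of their libraries. Fitted apart, Hspa1b differed by -3.73 on the log2 scale between ID2 and LAC (SE 0.79, adjusted p = 0.00327) and Hspa1a by -3.35 (SE 1.12, adjusted p = 0.0454).

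Hspa8 (chr9:40800984-40810087, plus strand), which encodes the HSP70 that cells make without stress, was the most abundant member per length and had the narrowest range of stage means. Its level was 968, 1291 and 1025 CPM in LAC and 744, 560.4 and 808 in ID2, without overlap. In NUL it ran from 649.8 to 967, in ID4 from 858 to 1343, in ID6 from 627.5 to 1159, in ID8 from 759.5 to 1059 and in REG from 710 to 1424. In TPM its mean was 857.2 in REG and 856.3 in LAC. It was called in none of the 15 comparisons by this test. For ID2 against LAC the log2 fold change was -0.64 (SE 0.24, adjusted p = 0.0728, unadjusted 0.0140). There it was called in 2 of 12 other settings and in 0 of 6 fits without 1 library.

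The stress-inducible HSP90 gene, Hsp90aa1 (chr12:110690605-110702728, minus strand), followed the Hspa1 genes over a smaller range. It was at 479.7, 639 and 455 CPM in LAC, and at 195, 130.1 and 179 in ID2. In NUL it was 333, 277, 261 and 333, and in ID4 184, 212.8, 479.7 and 309.8. The ID6 libraries had a low of 181, a median of 321.5 and a high of 448, the ID8 libraries stood at 299, 302 and 222, and the REG libraries at 532, 424, 205 and 247. LAC was thus above NUL and ID2 below NUL in every library, and the ID2 level was 3.12-fold below that of LAC (log2 fold change -1.64, SE 0.37, adjusted p = 0.00475). Neither difference from NUL was called (LAC 0.80, SE 0.33, adjusted p = 0.138, and ID2 -0.84, SE 0.34, adjusted p = 0.200).

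Hsp90ab1 (chr17:45567775-45573271, minus strand) encodes the constitutive HSP90. It was 989, 1139 and 1054 CPM in LAC, 742 to 872 in NUL and 720, 635 and 664 in ID2, again in 3 ranges without overlap. In ID4 it was 841.5 to 1137, in ID8 758 to 897 and in REG 644 to 1214. The difference between ID2 and LAC was small and called, with -0.66 on the log2 scale (SE 0.17, adjusted p = 0.00972). In ID6, at 591.0 to 990.2 CPM, it was called lower than in LAC as well (-0.43, SE 0.15, adjusted p = 0.0390), although ID6_201 reached the lowest LAC library and the call was made in 2 of 9 fits without 1 library. For LAC against NUL the log2 fold change was 0.42 (SE 0.16, adjusted p = 0.0905).

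The nucleotide exchange factor and the HSP40 genes that serve HSP70 were lower in ID2 than in LAC as well. Hsph1 (chr5:149614287-149636376, minus strand), the HSP110 that releases ADP from HSP70, was 142, 217 and 136 CPM in LAC against 62.4, 46.5 and 59.0 in ID2. In NUL it was 123, 89.8, 81.7 and 120.5, in ID4 69.4, 78.0, 151 and 100.9, in ID8 97.9, 85.0 and 69.0 and in REG 162, 163, 61.6 and 75.6, and in ID6 it had a low of 68.4, a median of 115 and a high of 152. ID2_31 and ID2_39 were below every library of the other stages, and ID2_224 lay just above REG_234. ID2 was 2.95-fold below LAC (log2 fold change -1.56, SE 0.37, adjusted p = 0.00655).

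Dnajb1 (chr8:83608193-83612653, plus strand), an inducible HSP40 that stimulates the ATPase of HSP70, was 35.6, 64.8 and 53.3 CPM in LAC and 28.1, 22.4 and 26.5 in ID2 (log2 fold change -1.0, SE 0.29, adjusted p = 0.0229). That call was made in 2 of 6 fits without 1 library, with an adjusted p of 0.127 without LAC_213. It was 28.9 to 58.1 in ID4, 27.2 to 52.4 in ID6, 27.4 to 40.4 in ID8 and 31.1 to 62.1 in REG. LAC_200 lay within the NUL range of 27 to 45.8. Dnaja1 (chr4:40722150-40737149, plus strand), a more abundant HSP40, was 380.3, 516 and 362 CPM in LAC and 248, 193 and 245 in ID2 (-0.88, SE 0.22, adjusted p = 0.00863, and 0.0645 without LAC_213). Its NUL libraries, at 278 to 347 CPM, lay between both groups, and the later stages ran from 255.5 to 422 in ID4, 240.5 to 397 in ID6, 235 to 315 in ID8 and 231.8 to 418 in REG. The log2 fold change of LAC against NUL was 0.53 (SE 0.27, adjusted p = 0.231) for Dnajb1 and 0.42 (SE 0.20, adjusted p = 0.211) for Dnaja1.

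Bag3 (chr7:128523616-128546981, plus strand) encodes a co-chaperone that joins HSP70 to small heat shock proteins and directs clients to autophagy. It was 32.4, 74.9 and 40.7 CPM in LAC, and 17.9, 18.3 and 20.7 in ID2. The NUL libraries ran from 22 to 45.5, overlapping the lower end of the LAC range, and those of ID4 from 19.9 to 33.7, of ID6 from 21.2 to 50.4 and of REG from 19.4 to 55.7. Bag3 was 2.6-fold lower in ID2 than in LAC (log2 fold change -1.38, SE 0.36, adjusted p = 0.0130) and 2.20-fold lower in ID8, where it was 24.3, 21.7 and 21.3 CPM (-1.14, SE 0.36, adjusted p = 0.0411). Without LAC_213, the library with by far the highest Bag3 level, these adjusted p-values were 0.113 and 0.258. With the number range as a covariate the values were -1.19 (SE 0.45, adjusted p = 0.116) for ID2 and -0.86 (SE 0.50, adjusted p = 0.365) for ID8.

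Hspb1 (chr5:135887919-135889563, plus strand), the gene of the small heat shock protein HSP27, had its highest mean in NUL through 1 library, NUL_221. Its level in LAC was tight at 6.02, 5.85 and 5.94 CPM, while NUL was spread over 5.39, 14.0, 4.45 and 8.15. ID2 was lowest at 3.17, 2.98 and 2.41. Thereafter it was 3.80, 3.53, 4.64 and 3.71 in ID4, had a low of 2.66, a median of 4.30 and a high of 5.95 in ID6, stood at 8.98, 2.96 and 6.71 in ID8 and at 6.38, 5.68, 5.53 and 5.61 in REG. It was the single entry called in ID2 against NUL, with -1.48 on the log2 scale (SE 0.34, adjusted p = 0.0154), where 0.919% of all genes tested were called lower and 3.24% in either direction. Without 1 library in turn this call was made in 4 of 7 fits, and not without ID2_31, ID2_39 or NUL_221 (adjusted p = 0.0622, 0.110 and 0.0530). With the number range as a covariate it was -1.35 (adjusted p = 0.148). ID2 was also called lower than LAC (-1.05, SE 0.35, adjusted p = 0.0438), but in none of the 6 fits without 1 library.

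**Figure D2:**
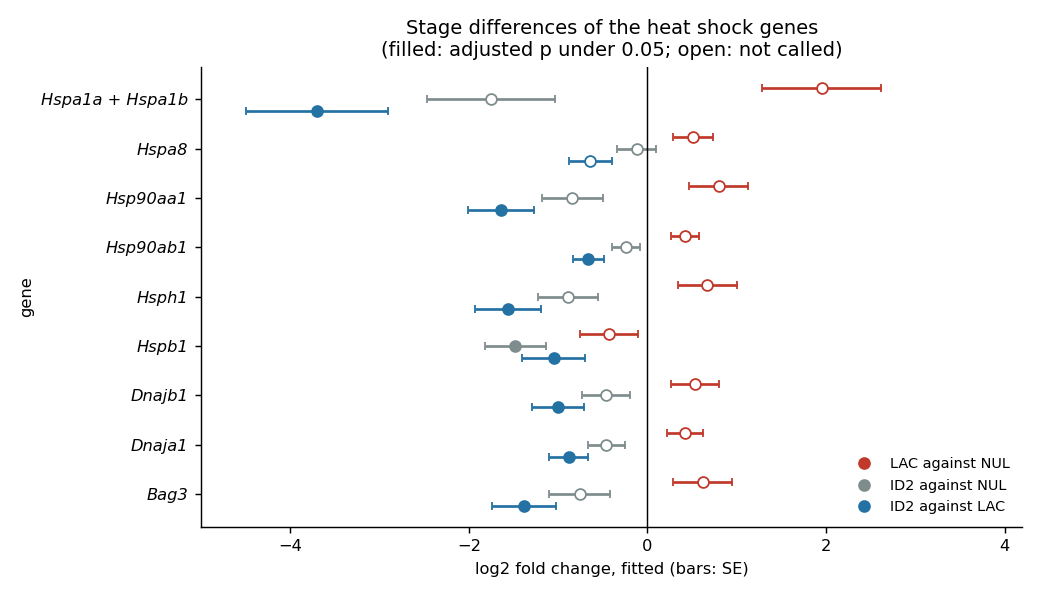
Fitted log2 fold change with its SE (horizontal) for each heat shock entry (vertical) in LAC against NUL, ID2 against NUL and ID2 against LAC, filled where called. The ID2 against LAC points lie between -3.70 and -0.64, and the single open one among them is Hspa8.

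In all, 8 of 9 entries were called lower and none higher in ID2 than in LAC, where 7.63% of all genes tested were called lower and 16.1% in either direction. The median log2 fold change of the 9 was -1.05, against 0.01 for all genes tested, and the 9 entries were lower in every ID2 library than in every LAC library, as were 17.6% of all genes tested. The Hspa1 sum, Hsp90aa1, Hsp90ab1 and Hsph1 were called in all 6 fits without 1 library. The count was lowest, at 4, without LAC_213, where 8.27% of all genes were called, and it was 5 without ID2_31, the library with pancreas transcripts, where 10.3% were.

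Library number and stage were partly confounded in this comparison, since the 3 LAC libraries were numbered 200 and over and only ID2_224 of the ID2 libraries was. With the number range as a covariate 0 of 9 entries were called by edgeR, while 7 had an unadjusted p under 0.05, and 7.60% of all genes were called. The Hspa1 sum then differed by -2.66 on the log2 scale (SE 0.91, adjusted p = 0.0816), and Hsp90aa1 by -1.15 (SE 0.40, adjusted p = 0.0882). ID2_224 alone was below every LAC library in 9 of 9 entries, as it was for 30.5% of all genes. A fit of the libraries numbered 200 and over, chosen after seeing the data, kept 1 ID2 library, whose spread was taken to equal that of the other groups. It gave -3.49 for the Hspa1 sum (SE 1.26, adjusted p = 0.174), 0 calls among the 9, 7 with an unadjusted p under 0.05, and 2.26% of all genes called. Within ID4, where each range held 2 libraries, those numbered 200 and over were above the others in 8 of 9 entries, as they were for 18.9% of all genes. The entries moved together between libraries (median r 0.80 among 8 of them after stage means were subtracted), so such counts are not 9 separate observations. In ID4 the mean Hspa1 sum was 127 CPM in the libraries numbered 200 and over and 29.8 in those numbered under 200. In ID2 the gap was smaller, at 19.8 CPM in ID2_224 and a mean of 15.7 in the others. There Hspa8 overlapped and Bag3 was lower in ID2_224.

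Before weaning, edgeR called 0 of 9 entries and 11.2% of all genes tested between LAC and NUL, and 5 entries had an unadjusted p under 0.05. DESeq2 called 1 entry and 13.2% of all genes. In the edgeR fit the log2 fold change was above 0 in 8 of 9 entries, with a median of 0.53 against -0.01 for all genes. By CPM, LAC libraries were all above NUL libraries for Hspa8, Hsp90aa1, Hsp90ab1, Hsph1 and Dnaja1, as they were for 10.2% of all genes. The Hspa8 gap was narrow, with LAC_200 at 967.5 and NUL_220 at 967.0 CPM. In TPM, Hspa8 (LAC_200 729.7, NUL_220 767.2) and Hsph1 (LAC_200 49.2, NUL_220 55.3) overlapped. Between ID2 and NUL all 9 values were below 0, with a median of -0.76 against -0.02 for all genes, and 6 had an unadjusted p under 0.05. Apart from Hspb1 in ID2, neither distance from NUL was called. All NUL libraries were numbered 200 and over, and with the number range as a covariate the ID2 against NUL values were nearer 0 in all 9 entries or changed sign: -0.72 for the Hspa1 sum (-1.75 without the covariate), -0.35 for Hsp90aa1 (-0.84), -0.10 for Dnajb1 (-0.46) and 0.11 for Hspa8 (-0.12). Then 1 entry, Hspb1, had an unadjusted p under 0.05 (0.00356), and 108 of 16427 genes were called. Without NUL_220 the Hspa1 sum differed by -0.64 between ID2 and NUL. The LAC value of Hspb1, -0.43 (adjusted p = 0.462), was -0.01 (adjusted p = 0.996) without NUL_221.

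Between day 2 and day 4 after weaning no difference was called, although all values lay on 1 side of 0. Between ID4 and ID2, edgeR called 0 of 9 entries, against 1.5% of all genes. Here 7 entries had an unadjusted p under 0.05 and DESeq2 called 2, counts for which the 1.5% is no background. All 9 log2 fold changes were above 0, with a median of 0.61. The Hspa1 sum had the widest of these, at 2.20 (SE 0.73, adjusted p = 0.150), and ID4_211 alone carried 173 CPM. Against LAC, 2 entries were called lower in ID6 and 2 in ID8, named above, where 7.96% and 6.11% of all genes were called lower and 16.4% and 12.8% in either direction. Both counts were 0 without LAC_213 and 0 without LAC_240, and with the number range as a covariate they were 2 in ID6 and 0 in ID8. In ID4 against LAC edgeR called 0 of 9 and 22.4% of all genes, with 4 unadjusted p-values under 0.05 and 1 call by DESeq2. Without ID4_211 edgeR called 5 of 9, a count given without its own share of all genes, for which the 22.4% is no background. In REG against LAC it called 0 of 9 and 11.7% of all genes, with 1 unadjusted p under 0.05 and 0 calls by DESeq2.

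Against NUL, edgeR called 0 of 9 entries in each of ID4, ID6, ID8 and REG, where 4.25%, 1.08%, 0.499% and 0.0852% of all genes were called. The entries with an unadjusted p under 0.05 numbered 2, 1, 0 and 1, and DESeq2 called 1, 1, 0 and 0. The steps from ID4 to ID6, from ID6 to ID8 and from ID8 to REG held 0 calls as well (8.53%, 4.13% and 0.0487% of all genes), with 1 unadjusted p under 0.05 in each and 0 calls by DESeq2.

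Libraries of the same stage were high or low in most heat shock genes together. Within each stage, the library with the highest Hspa1 sum was also highest for most of the 8 other entries: LAC_213 for 7, NUL_220 for 6, ID2_224 for 6, ID4_211 for 8, ID6_201 for 7, ID8_101b for 7 and REG_203 for 6. REG_234 and ID6_218, the lowest for the Hspa1 sum in their stages, were lowest for all 8 others. Across the 27 libraries, the 28 pairs among the 8 entries without Hspb1 had a Pearson r of log2 CPM between 0.63 and 0.98, with a median of 0.82. After the stage means were subtracted the range was 0.65 to 0.98 and the median 0.80. The 8 pairs with Hspb1 had r between 0.22 and 0.48. These pairs share libraries, so the values are a description. The share of all genes that were highest or lowest in the same library was not counted. Time of day and handling of the animals are not in the labels, and their part was not tested.

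**Figure D3:**
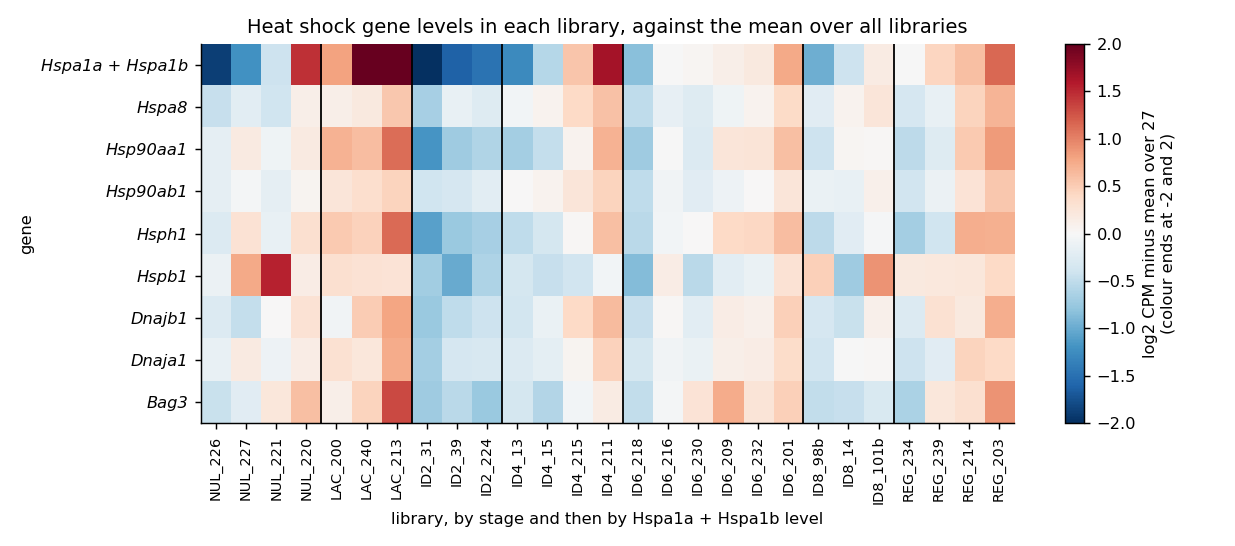
Log2 CPM of each heat shock entry (vertical) minus its mean over the 27 libraries, as colour, for every library (horizontal), ordered by stage and within it by the Hspa1a + Hspa1b level. Columns such as LAC_213, ID4_211 and REG_203 are high and ID2_31 and ID6_218 low in nearly every line, while Hspb1 departs from the others.

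Genes that work with these chaperones were counted from lists, to be read against the 7.63% of all genes called lower and 16.1% called in either direction between ID2 and LAC. Between ID2 and LAC, 6 of the 8 subunits of the CCT ring, which folds actin and tubulin, were called lower and none higher, with a median log2 fold change of -0.39. Cct5 (-0.57), Cct7 (-0.48) and Cct3 (-0.45) had the widest differences. Of 15 HSP90 co-chaperones, 5 were lower, led by Chordc1 (-1.06), Ahsa2 (-0.90), a relative of the HSP90 ATPase activator, and Stip1 (-0.87), which bridges HSP70 and HSP90, and 1 was higher, Rpap3 (0.46). Of 22 other cytosolic HSP70, HSP40, BAG and small heat shock genes, 6 were lower and none higher, with Hspa4l, a relative of Hsph1, far ahead of the rest at -1.14 (SE 0.18, adjusted p = 0.000105), Bag1 at -0.43 and Dnajb2 at -0.33.

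Chaperones of other compartments were counted separately, against the same 7.63% and 16.1% of all genes. In the endoplasmic reticulum, whose chaperones answer to the unfolded protein response, 10 of 15 genes were called lower in ID2 than in LAC and none higher, with a median of -0.78, led by Creld2 (-1.68), Sdf2l1 (-1.60) and Hyou1 (-1.36). In mitochondria 2 of 11 were lower, Grpel2 (-0.56) and Hspd1 (-0.32), and 1 higher, Hscb (0.62), with a median of -0.04. The transcript of Hsf1 itself differed by -0.14 on the log2 scale (SE 0.10, adjusted p = 0.385). Of the 4 genes tested in the HSF list, which includes the HSF-binding Hsbp1, Hsf4 was the 1 called, at -0.68 (SE 0.19, adjusted p = 0.0137, and 0.0515 with the number range as a covariate), and Hsf5 did not pass the filter on low counts. With the number range as a covariate, where 7.60% of all genes were called in either direction, the counts called lower were 1 of 8 CCT subunits, 3 HSP90 co-chaperones, 2 of the 22 cytosolic genes and 1 endoplasmic reticulum gene, with medians of -0.32, -0.18, -0.22 and -0.73. In the same order these counts were 3, 4, 3 and 1 without ID2_31 (10.3% of all genes called), with a median of -0.64 for the endoplasmic reticulum, and 2, 4, 3 and 2 without LAC_213 (8.27%). For the mitochondrial list they were 0 lower and 0 higher with the number range as a covariate, and 0 and 0 without ID2_39 (9.99% of all genes called).

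**Figure D4:**
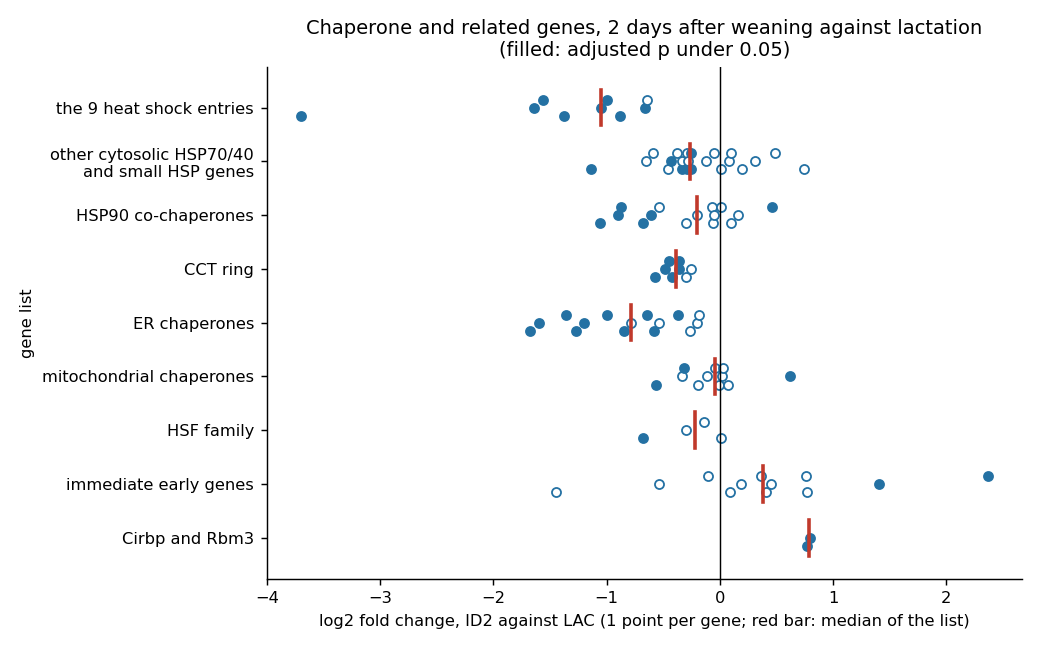
Log2 fold change of ID2 against LAC (horizontal) for each gene of the lists (vertical), filled where called, with the median of each list as a red bar. The 9 heat shock entries have the lowest median, -1.05, followed by the endoplasmic reticulum genes at -0.78, and Cirbp and Rbm3 lie above 0.

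Between LAC and NUL, where 11.2% of all genes were called, calls were made in 4 of the 22 other cytosolic genes, 2 of 8 CCT subunits, 1 of 11 mitochondrial genes and 1 of the 4 in the HSF list. Hspa4l was higher in LAC, with 0.94 on the log2 scale (SE 0.16, adjusted p = 0.000410), with 44.1 to 51.5 CPM in LAC and 22 to 28.6 in NUL, and no library of another stage reached the LAC range. Hsf4, one of the heat shock factors, was higher as well (0.72, SE 0.17, adjusted p = 0.00667), as were Dnaja4 (0.58), Bag1 (0.37), Cct7 (0.42), Cct5 (0.34) and Hspd1 (0.39), while Cryab was lower (-0.64). Without LAC_213, where 6.79% of all genes were called, 1 of the 22 cytosolic genes was called higher, and 0 CCT subunits and 0 mitochondrial genes were called. No cytosolic gene was called lower with the number range as a covariate, with the clock covariate, with other size factors or without the filter. In the edgeR fit of all 27 libraries, 0 of 15 HSP90 co-chaperones and 0 of 15 endoplasmic reticulum chaperones were called, with 5 and 1 at an unadjusted p under 0.05. DESeq2 called 1 of each, edgeR called 1 co-chaperone with RLE size factors, with the number covariate, with the run covariate, without LAC_240 or without NUL_226, and with only these groups fitted it called 2 co-chaperones and 1 endoplasmic reticulum gene. Hspa4l kept its call in both comparisons with the number range as a covariate, at 0.94 (adjusted p = 0.000528) for LAC against NUL and -1.05 (adjusted p = 0.00430) for ID2 against LAC. In ID2 against NUL the 1 chaperone or HSF gene of these lists called was Hsf2 (-0.52, SE 0.12, adjusted p = 0.0101).

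Immediate early genes, which rise within minutes of a stimulus, were counted as a check on tissue collection. Their summed level overlapped between groups, at 91.7 to 243 CPM in NUL, 102 to 183 in LAC and 119 to 208 in ID2. Between ID2 and LAC 2 of 12 were called, both higher in ID2, Nr4a1 (2.37) and Junb (1.41), against 16.1% of all genes, and neither was called without LAC_213 or with the number range as a covariate (0 of 12 in each). Clock genes were counted too, since hour of collection is not given: 3 of 16 were higher in ID2 than in LAC, Dbp (2.94), Tef (0.75) and Cry2 (0.48), and 2 were lower, Arntl (-0.49) and Clock (-0.38), against the same 16.1% of all genes. None of the 16 was called with the number range as a covariate, without LAC_213 or in the libraries numbered 200 and over. Against NUL, 7 of 16 were called in ID2, where 3.24% of all genes were, with Dbp (3.80) the farthest from 0. With the first component of the clock genes as a covariate, 5 of the 9 heat shock entries and 7.92% of all genes were called, all 5 lower, and the Hspa1 sum differed by -3.69 on the log2 scale (SE 0.97, adjusted p = 0.0244). That component itself differed between the stages, at 2.64, 3.85 and 8.55 in ID2 and -1.54, -2.4 and 2.36 in LAC. The fit therefore cannot separate hour of collection from stage.

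Cirbp and Rbm3, RNA-binding protein genes that rise when cells cool slightly, went the other way. Cirbp was 9.19, 6.07 and 8.59 CPM in LAC and 14.5, 13.2 and 13 in ID2, a difference of 0.77 on the log2 scale (SE 0.19, adjusted p = 0.00561). Rbm3 was 12.9, 11 and 12.1 CPM in LAC and 21.3, 15.9 and 25.9 in ID2 (0.80, SE 0.21, adjusted p = 0.00999). Both were called higher in ID2 with the number range as a covariate too (adjusted p = 0.0339 and 0.0329), but neither without LAC_213 (0.0521 and 0.0541). Rbm3 was not called with the clock covariate (0.47, adjusted p = 0.262), nor Cirbp in the libraries numbered 200 and over (0.86, adjusted p = 0.0997). Between LAC and NUL the values were -0.41 (adjusted p = 0.135) and -0.57 (adjusted p = 0.0615). No body temperature is given in the labels, and the part of temperature was not tested.

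Over the 27 libraries, Cirbp and the Hspa1 sum had a Pearson r of log2 CPM of -0.73 and a Spearman rho of -0.74. The libraries share stages, so these values are a description and carry no test. Without LAC_213 and LAC_240, the 2 libraries farthest from the median of the Hspa1 sum, r was -0.62. Within the 20 libraries numbered 200 and over r was -0.73, and within the 7 others -0.91. After the stage means were subtracted it was -0.61. Among the 10988 genes whose log2 CPM averaged 1 or more, Cirbp had rank 2 from the most negative end of the correlations with the Hspa1 sum. For Rbm3, r was -0.32 and rho -0.29, and r was -0.09 without the same 2 libraries. Within the libraries numbered 200 and over r was -0.56, and within the others -0.38, and after the stage means were subtracted it was -0.01.

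**Figure D5:**
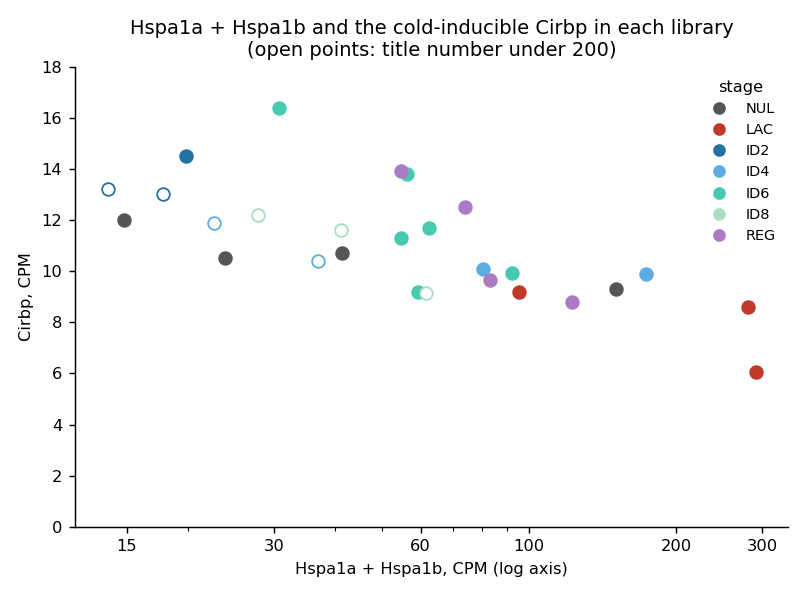
Cirbp level (vertical, CPM from 0) against the summed Hspa1a + Hspa1b level (horizontal, CPM, log axis) in each library, coloured by stage, with open points for libraries numbered under 200. LAC libraries sit at the lower right, with Cirbp at 6.07 to 9.19, and ID2 libraries at the upper left, with Cirbp at 13 to 14.5.

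The genes most like the Hspa1 sum were looked for by Pearson r of log2 CPM over the 27 libraries, among the same 10988 genes. Dnajb1 (0.90) and Hsp90aa1 (0.83) ranked 1 and 2, and 5 further members, Hsph1, Bag3, Dnaja1, Hsp90ab1 and Hspa8, ranked within the first 11, whereas Hspb1 (0.36) ranked 1752. The 8 nearest genes that are not members were P4ha1 (0.82), a collagen prolyl hydroxylase subunit, Cacybp (0.78), Ppid (0.78), a cyclophilin that binds HSP90, Jmjd6 (0.77), Chordc1 (0.76), Cct5 (0.76), Ahsa2 (0.76) and the unannotated Gm26825 (0.75). They were chosen for likeness to a sum that is itself lower in ID2 than in LAC, so their fold changes between these stages follow in part from the choice and are given without a test: -1.02 for P4ha1, -0.79 for Cacybp, -0.57 for Jmjd6 and -0.69 for Gm26825.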

How the data were processed

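RNA was prepared from liver with Trizol and a NEBNext Ultra RNA kit, per the labels' protocols. The aligner STAR 2.6.1a, the quantifier RSEM 1.3.1 and the build mm10 (GRCm38) are named in the submitters' processing notes; the annotation, trimming and use of strand are not given in the sources used here. Per the file headers, each deposited table holds an expected count per gene, in which RSEM splits reads shared by several genes, a TPM value, scaled by the authors within each library, and other values such as the effective length in bases. Of the 27 libraries, 16 were sequenced in 2 runs, per the deposited notes.

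From these files, 51633 of 51826 identifiers were given a symbol (GENCODE M21 names). Expected counts of Hspa1a and Hspa1b were summed, all counts were rounded, and genes were filtered by stage with filterByExpr, which left 16427. They were normalized by TMM and fitted over all 27 libraries in edgeR 4.0.16 (quasi-likelihood, robust, R 4.3.3), with 15 comparisons of stages and a joint test, all two-sided. CPM values use the TMM-scaled library size, and log2 CPM a prior count of 1. The common dispersion of 0.0359 corresponds to a coefficient of variation of 0.19 between libraries. The fit was tested on simulated data. Libraries of 1 group differed beyond sampling noise (lowest chi-square per gene 45.7), so none was counted as a duplicate. Alternatives were RLE factors, DESeq2 1.42.0, limma 3.58.1 on log2(TPM + 1) and log2(TPM + 0.1), no filter, no robust estimation, covariates, separate Hspa1 genes, a threshold of 0.01, fits of the compared groups alone and fits without 1 library. From each list, up to 3 called genes per direction with the largest change are named. Hsf1 and the clock genes were also named after their values were seen. The members and lists were chosen with earlier results of these data known. Correlations across libraries are given without a test, and shares of genes whose groups do not overlap are over the genes tested. Gene positions are from GENCODE M21 and promoter sequences from RefSeq (GRCm38.p6).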

Additional observations from a re-analysis of the deposited data

How the results depend on the processing

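The count called lower in ID2 than in LAC (8 of 9) was 5 at an adjusted p under 0.01 (6.86% of all genes called), 5 with the clock covariate (7.92%) and 0 with the number range as a covariate (7.60%). Without 1 library it ran from 4 to 7. Hspa8, the entry not called, was called in 2 of 12 other settings. In the libraries numbered 200 and over, a fit chosen after seeing the data that kept 1 ID2 library, the Hspa1 sum differed by -3.49 on the log2 scale. For LAC against NUL (0) it was 1 without robust estimation, 1 with the number covariate, 1 by DESeq2, 1 by limma with either pseudocount and 2 with only these groups fitted (0 to 1 without 1 library). For ID2 against NUL (1) it was 0 at 0.01, 0 with the number covariate, 0 with the clock covariate, 0 in libraries numbered 200 and over and 2 with only these groups (0 to 1 without 1 library). For ID4 against NUL (0) it was 1 without robust estimation and 1 by DESeq2, and for ID6 against NUL (0) 1 by DESeq2 (0 to 1 without 1 library for both).

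For ID4 against LAC (0) it was 1 without robust estimation, 2 with the sequencing run covariate, 1 by DESeq2, 1 by limma with a pseudocount of 0.1 and 1 with only these groups (0 to 5 without 1 library). For ID6 against LAC (2) it was 0 at 0.01, 0 without a filter, 0 with the clock covariate, and 1 by limma with either pseudocount and in libraries numbered 200 and over (0 to 2 without 1 library). For ID8 against LAC (2) it was 0 at 0.01, 0 without a filter, 0 with the number, run or clock covariate, 4 by DESeq2, and 1 by limma with either pseudocount (0 to 2 without 1 library). With the Hspa1 genes fitted apart and their entry counted only where both were called, the ID6 and ID8 counts were 1 and 1: Hspa1b was called (adjusted p = 0.0264 and 0.0383) and Hspa1a was not (0.259 and 0.221). For ID4 against ID2 (0) it was 2 by DESeq2 and 1 with only these groups.

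The joint count (5) was 0 at 0.01, 3 without a filter, 2 with the number covariate, 3 with the clock covariate, 9 by DESeq2 and 0 in libraries numbered 200 and over (1 to 7 without 1 library). Hspa8 in ID2 against NUL (-0.12) changed sign to 0.11 with the number covariate, 0.02 without ID2_31 and 0.01 without NUL_220, and ran from -0.23 to 0.02 without 1 library. For the joint test and the comparisons other than ID2 against LAC and LAC against NUL, shares of all genes under these settings are not given here. Their counts are therefore not set against a change over the whole table. The cause of the differences between settings was not tested. Counts of the other comparisons stayed at 0 under every alternative run. No paired analysis was possible because no library number occurs in more than 1 group. Of the 9 entries Hspb1 had the lowest counts, down to 119 in 1 library, and the least depth behind its values.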
